A study of Mus musculus with 43 samples.

Results

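The genes described here are 10 long noncoding RNA genes, Malat1, Neat1, Meg3, Rian, Mirg, Miat, Snhg11, Pantr1, Rmst and Kcnq1ot1, read from all 43 libraries of an RNA-seq study of cortical glia. They were chosen by name as abundant long noncoding RNAs, and all 10 had a row among the 55416 annotated genes of each count table and among the 9657 of those genes that the annotation calls long noncoding. Mice carrying the null allele B6.Cg-Rag2tm1.1Cgn/J on a C57BL/6J background, which make no mature T or B lymphocytes, were compared at 3 months of age with immunocompetent littermates from heterozygous parents of 1 colony. The null allele was carried by every cell of the body, so that no group separated a lack of lymphocytes from a loss of Rag2 in other cells. The control group pooled Rag2+/- mice (littermate pairs 1, 2, 3 and 5) with Rag2+/+ mice (pairs 4 and 6, all male), and in pair 6 the control was male and the Rag2-/- mouse female. Cells were taken from the cerebral cortex of 12 mice in 6 pairs by immunopanning, in which a cell suspension is passed over dishes coated with antibodies against CD45 (microglia), PDGFRα (oligodendrocyte precursor cells, OPCs), GalC (oligodendrocytes) and HepaCAM (astrocytes). There were 4 control and 4 Rag2-/- libraries of oligodendrocytes, 6 and 5 of OPCs, 6 and 6 of astrocytes, and 6 and 6 of microglia, 1 library per mouse and cell type.

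Between 6499417 and 23118497 reads per library fell on genes (median 10447042). The share of mitochondrially encoded genes among them ranged from 45.8% to 60.1% in oligodendrocytes, from 22.5% to 45.1% in astrocytes, from 22.4% to 36.7% in OPCs and from 6.75% to 11.7% in microglia, and it moved with cell type beside every level given below as CPM, the count of a gene scaled to its library's total count on genes. All 7 oligodendrocyte, 7 OPC, 8 astrocyte and 8 microglia panel genes had their highest mean CPM in their own cell type. Panel genes were also counted elsewhere. The summed astrocyte panel had a mean of 4477 CPM in OPCs against 20590 in astrocytes. The summed oligodendrocyte panel had 4283 CPM in astrocytes against 19030 in oligodendrocytes. The summed microglia panel had 293 CPM in OPCs, its highest mean outside microglia, against 5903 in microglia. The part of such RNA in the members' levels was not tested. Rag2 itself had 0 counts in all 21 Rag2-/- libraries and 6 counts over 3 of 22 control libraries, too few to check a label of 1 library. All libraries of a cell type were sequenced on the same lane, so a difference between lanes cannot be told apart from one between cell types, nor, in bulk samples, fewer cells that express a gene from less RNA per cell.

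Long noncoding RNAs are transcripts that are spliced or processed like messenger RNAs but carry no long open reading frame. Malat1 is a nuclear RNA held at nuclear speckles, the bodies that store splicing factors, and Neat1 is the scaffold on which paraspeckles are built. Meg3, Rian and Mirg are transcribed in the same direction from the maternal copy of the imprinted Dlk1-Dio3 region and host many microRNAs and small nucleolar RNAs, while Kcnq1ot1 is made from the paternal copy of the Kcnq1 region and silences neighbouring genes on that copy. Miat (also called Gomafu) is a nuclear RNA known from neurons, Snhg11 hosts small nucleolar RNAs, Pantr1 is divergent to the neural transcription factor gene Pou3f3, and Rmst is known from neural progenitors, where it binds Sox2.

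Malat1 lies at chr19:5845717-5853602 (GRCm39, minus strand) and Neat1 nearby at chr19:5874736-5897132 on the same strand, each as 1 exon, of 7886 and 22397 bases. Meg3 (chr12:109506877-109538165), Rian (chr12:109570242-109628150) and Mirg (chr12:109696198-109715898) follow each other on the plus strand. Miat lies at chr5:112361094-112377261 (minus), Snhg11 at chr2:158217558-158228071 (plus), Pantr1 at chr1:42629754-42734584 (minus), Rmst at chr10:91906899-92001132 (minus) and Kcnq1ot1 at chr7:142731402-142850327 (minus), inside Kcnq1, which is read from the other strand. The kit did not mark strand, and 32.56% of the exonic bases of Miat are shared with genes on the opposite strand, against at most 5.744% in the other members. In Rmst 11.1% of exonic bases are shared with other annotated genes of the same strand, whose reads cannot be told from its own.

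One stretch of Malat1 is shown because the transcript has no poly(A) tail of the usual kind: its mature end is closed by a triple helix of 2 U-rich tracts and 1 A-rich tract. The stretch covers bases 7502 to 7599 of the 7886 (chr19:5846004-5846101, GRCm39, minus strand), and the capitals mark the 2 U-rich tracts (10 and 11 bases) and the A-rich tract (18 bases).
Malat1: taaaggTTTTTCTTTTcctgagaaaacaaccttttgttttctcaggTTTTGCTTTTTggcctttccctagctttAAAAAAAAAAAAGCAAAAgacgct
The capitals, in this order, 10 to 60 bases apart and with at least 8 A in the run, were found in the longest transcript of 1 of 9649 long noncoding RNA genes (0.0104%), which is Malat1 itself. The pattern was spelled from the letters of Malat1, so Malat1 had to match. Ends of this kind with other letters were not searched for, so the count does not show how common such ends are.

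The repeats of Miat are shown because the RNA is known for tandem copies of TACTAAC, the letters of the intron branch point, which splicing factor 1 binds. The first stretch is chr5:112365175-112365326 and the second chr5:112364618-112364678 (GRCm39, minus strand), each with 3 copies in capitals.
Miat stretch 1: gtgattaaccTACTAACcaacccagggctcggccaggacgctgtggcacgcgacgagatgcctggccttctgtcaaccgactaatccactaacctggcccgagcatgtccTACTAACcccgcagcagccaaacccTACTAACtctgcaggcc
Miat stretch 2: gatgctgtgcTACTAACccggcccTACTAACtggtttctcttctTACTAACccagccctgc
On the transcribed strand, the longest Miat transcript (9163 bases) held 6 copies of TACTAAC, or 0.655 per kb. Among 6340 long noncoding RNA transcripts of at least 1000 bases, 5.54% held at least 1 copy, 1.42% held it at this density, and 1 (0.0158%), Miat, had 3 copies within 120 bases. Kcnq1ot1 held 4 copies in 93092 bases and Neat1 held 1, and the longest transcripts of the other members held none.

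Of the microRNA genes lying inside a member on its own strand, Mirg held 14, Rian 4, Meg3 2 and Rmst 2, and 21 of these 22 matched RefSeq (GRCm38.p6), giving 39 mature sequences. A few are shown, with the seed (bases 2 to 8) in capitals, because the host levels below are levels of precursors of such small RNAs. Only 1 of the 38 distinct seeds was shared, that of miR-453 and miR-496a-5p, both hosted by Mirg.
mmu-miR-453 (Mirg): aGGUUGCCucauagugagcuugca
mmu-miR-496a-5p (Mirg): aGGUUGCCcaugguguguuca
mmu-miR-154-3p (Mirg): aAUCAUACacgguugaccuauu
mmu-miR-410-3p (Mirg): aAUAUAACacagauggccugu
mmu-miR-770-5p (Meg3): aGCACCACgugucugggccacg
mmu-miR-341-3p (Rian): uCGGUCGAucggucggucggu
mmu-miR-135a-5p (Rmst): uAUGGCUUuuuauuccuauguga
The libraries were made from long RNA and the microRNA rows were near 0. Over all 43 libraries the 14 microRNA genes in Mirg had 0 counts in 10 cases and at most 33 counts in the rest (Mir453), those in Meg3 had none, and in Rian Mir1188 had 259 counts and Mir341 139. Of the 13 small nucleolar RNA genes in Rian only 1 had any count, with 629 over all libraries. A hosted RNA that lies in an exon of its host cannot be counted apart from it, so these counts say nothing about the mature small RNAs.

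Malat1 was the most abundant long noncoding RNA gene by CPM in all 4 cell types, with a rank of 4 to 9 among all genes, and took 43.7% ± 4.94 (SD, n = 8) of long noncoding RNA counts in oligodendrocytes, 54.7% ± 2.91 (n = 11) in OPCs, 70.9% ± 2.31 (n = 12) in astrocytes and 43.6% ± 2.55 (n = 12) in microglia. Meg3 ranked between 3 and 5 of the 9657 genes. Neat1 ranked between 3 and 14, Snhg11 between 4 and 29, Kcnq1ot1 between 11 and 19 and Rian between 9 and 83. The label "abundant" did not hold for every member in every cell type. Miat ranked between 33 and 180, Mirg between 127 and 912, and Rmst between 88 in astrocytes and 2256 in microglia, where Pantr1 ranked 1181.

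Per length of merged exons, which is the scale on which genes can be compared, Malat1 had 2434 CPM per kb in astrocytes and 619 in oligodendrocytes. No other member passed the 31.8 CPM per kb of Meg3 in oligodendrocytes. Kcnq1ot1, whose 93852 exonic bases gather reads over a long stretch, had 1.08 CPM per kb in OPCs and 0.572 in astrocytes, although its CPM was above that of Neat1 in OPCs, where Neat1 had 3.20 CPM per kb.

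**Figure D1:**
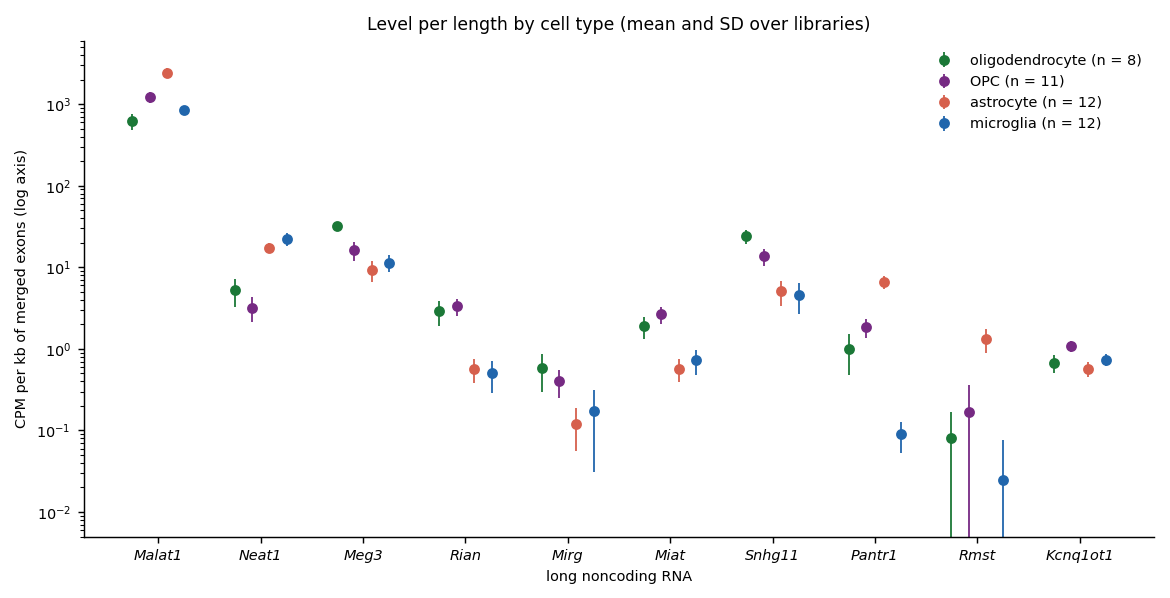
Level of each long noncoding RNA by cell type in CPM per kb of merged exons (log axis), as mean with SD over 8 oligodendrocyte, 11 OPC, 12 astrocyte and 12 microglia libraries. Malat1 lies between 619 and 2434 CPM per kb, above every other member, while Rmst falls from 1.32 in astrocytes to 0.0246 in microglia.

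The members did not follow a single pattern across cell types. By mean CPM, 3 members were highest in oligodendrocytes (Meg3, Mirg, Snhg11), 3 in OPCs (Rian, Miat, Kcnq1ot1), 3 in astrocytes (Malat1, Pantr1, Rmst) and 1 in microglia (Neat1). The split among oligodendrocytes, OPCs, astrocytes and microglia became 5, 1, 4 and 0 when mitochondrially encoded counts were taken out of the totals, and 6, 0, 3 and 1 on the scale of trimmed mean of M values (TMM), which sets library scale from the bulk of genes. Tests between cell types were made on the TMM scale with edgeR's quasi-likelihood test, Benjamini-Hochberg adjusted over 19209 genes, with a call at adjusted p under 0.05. All fold changes between cell types below are log2 differences from that fit with their standard errors, and directions that turned with the scaling are named with them.

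**Figure D2:**
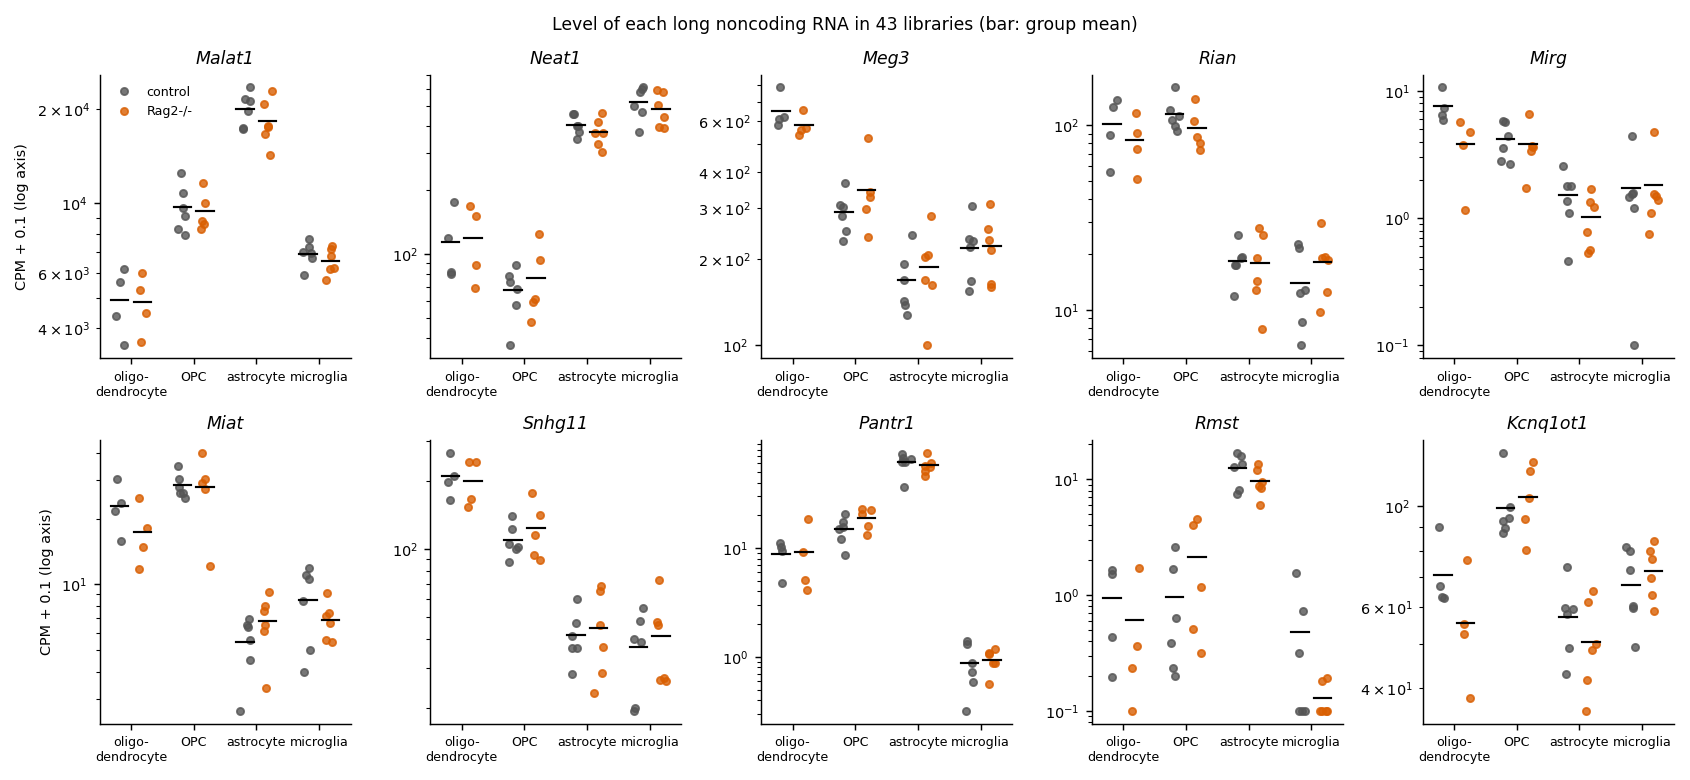
CPM of each long noncoding RNA in every library (log axis, with an offset of 0.1 added to values), by cell type and genotype, with 1 point per library and 1 panel per gene. Malat1, Pantr1 and Rmst are highest in astrocytes and Meg3 is highest in oligodendrocytes without overlap with another cell type, while control and Rag2-/- points lie among each other in nearly every panel.

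Malat1 reached 14259 CPM in the lowest, 18684 in the median and 23454 in the highest astrocyte library. OPC libraries ran from 7906 to 12510 CPM (median 9146), microglia from 5711 to 7706 (median 6881) and oligodendrocytes from 3521 to 6199 (median 4873). The astrocyte range did not overlap any other. Malat1 was higher in astrocytes than in microglia by 1.81 ± 0.066 (adjusted p = 3.87e-27), and it was lower in OPCs than in astrocytes, with a difference of -1.40 ± 0.067 (adjusted p = 3.22e-21), and in oligodendrocytes than in astrocytes, at -1.32 ± 0.075 (adjusted p = 7.17e-19). Oligodendrocytes and OPCs were not told apart on the TMM scale (0.09 ± 0.073, 95% interval -0.06 to 0.23, adjusted p = 0.354), and Malat1 was lower in oligodendrocytes when library totals (-0.98) or totals without mitochondrial genes (-0.36) set the scale. Against microglia, oligodendrocytes were higher by 0.49 ± 0.071 on the TMM scale and lower, at -0.47, by library totals.

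Neat1, the paraspeckle scaffold, was higher in microglia and astrocytes than in oligodendrocytes, and it was lowest in OPCs. It had 374 to 609 CPM in microglia (median 502) and 302 to 460 CPM in astrocytes (median 388), ranges that overlapped. In oligodendrocytes it had 68.7 to 176 CPM (median 103) and in OPCs 36.8 to 124 CPM (median 68.1), and no library of these lineages reached the lowest astrocyte library. The difference was -2.92 ± 0.134 for OPCs against microglia (adjusted p = 2.39e-23), -2.87 ± 0.134 for OPCs against astrocytes (adjusted p = 1.48e-21), -1.18 ± 0.140 for oligodendrocytes against microglia (adjusted p = 5.43e-10) and -1.13 ± 0.140 for oligodendrocytes against astrocytes (adjusted p = 4.25e-09). Neat1 was higher in oligodendrocytes than in OPCs by 1.74 ± 0.137 (adjusted p = 2.80e-14). Astrocytes and microglia differed by -0.05 ± 0.120 (95% interval -0.30 to 0.19), with a sign that turned under totals without mitochondrial genes.

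The transcripts of genes for proteins of these nuclear bodies did not follow Neat1 and Malat1 throughout. Of 16 genes for paraspeckle proteins, 11 were higher and 0 lower in OPCs than in astrocytes (26.1% of all genes were higher and 18.1% lower), the opposite side from Neat1, among them Nono (0.55 ± 0.111, adjusted p = 5.67e-05) and Sfpq (0.33 ± 0.105, adjusted p = 0.00978), which encode core proteins that bind Neat1, and Tardbp (0.37 ± 0.110, adjusted p = 0.00551). In astrocytes against microglia 3 were higher and 11 lower (38.2% and 33.8% of all genes), with Sfpq at -1.63 ± 0.105 (adjusted p = 3.59e-18). Of 13 genes for nuclear speckle proteins, 3 were higher and 3 lower in OPCs than in astrocytes, near the shares of all genes, and 1 was higher and 9 lower in astrocytes than in microglia. Son, which encodes a scaffold of speckles, was lower in OPCs than in astrocytes (-0.71 ± 0.097, adjusted p = 5.28e-08), the same side as Malat1, and lower in astrocytes than in microglia (-0.25 ± 0.094, adjusted p = 0.0150), the other side. The nearest coding genes around both RNAs did not share the astrocyte or microglia peak. Frmd8, which lies 2598 bases from Neat1 on the same strand, had 9.12 to 29.5 CPM in astrocytes and 16.7 to 35.7 in microglia against 18.4 to 37.7 in OPCs. The list of 17 nearest coding genes of all members held those on either side and also Pou3f3 and Kcnq1, which overlap a member. Of the 17, 10 could be tested. In oligodendrocytes against astrocytes 4 of these were higher and 1 lower (28.9% and 22.7% of all genes). In astrocytes against microglia 2 were higher and 4 lower (38.2% and 33.8% of all genes).

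Meg3, whose RNA is widespread in brain, was highest in oligodendrocytes, with 539 to 786 CPM (median 596). OPC libraries had 231 to 525 CPM (median 301), microglia 154 to 310 CPM (median 225) and astrocytes 99.9 to 281 CPM (median 168). The oligodendrocyte range did not overlap that of OPCs, and the other ranges overlapped their neighbours. Meg3 was higher in oligodendrocytes than in astrocytes by 2.49 ± 0.174 (adjusted p = 4.18e-16), in oligodendrocytes than in microglia by 2.48 ± 0.173 (adjusted p = 6.34e-17) and in oligodendrocytes than in OPCs by 2.05 ± 0.177 (adjusted p = 3.78e-13). The smaller differences of OPCs against astrocytes (0.43 ± 0.158, adjusted p = 0.0237) and against microglia (0.42 ± 0.158, adjusted p = 0.0158) no longer passed with DESeq2 size factors (adjusted p = 0.0991 and 0.0870). Over all 9 settings of the fit, their adjusted p reached 0.172 and 0.450.

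Rian and Mirg lie further along the same imprinted region, and Rian split the cell types into the oligodendrocyte lineage against the rest. Rian had 73.4 to 160 CPM in OPCs (median 106) and 50.8 to 137 CPM in oligodendrocytes (median 89.6), which overlapped. Astrocytes had 7.78 to 27.7 CPM (median 18.2) and microglia 6.33 to 29.5 CPM (median 15.6), so every library of the oligodendrocyte lineage lay above all of these. The difference was 3.54 ± 0.255 for oligodendrocytes against microglia (adjusted p = 1.73e-16), 3.06 ± 0.251 for oligodendrocytes against astrocytes (adjusted p = 5.53e-14), 2.62 ± 0.238 for OPCs against microglia (adjusted p = 2.43e-13) and 2.14 ± 0.233 for OPCs against astrocytes (adjusted p = 2.06e-10). Mirg was much lower, at 1.05 to 10.5 CPM (12 to 95 counts) in oligodendrocytes, 1.63 to 6.45 CPM in OPCs, 0.365 to 2.49 CPM in astrocytes and 0 to 4.66 CPM in microglia, ranges that overlapped throughout. It was nonetheless called higher in oligodendrocytes than in astrocytes (2.94 ± 0.438, adjusted p = 2.38e-07) and in OPCs than in astrocytes (1.36 ± 0.404, adjusted p = 0.00509). Over all 9 settings of the fit, the adjusted p of Mirg in OPCs against astrocytes reached 0.144. Rian and Mirg were each called higher in oligodendrocytes than in OPCs on the TMM scale, by 0.92 ± 0.247 and 1.58 ± 0.432, but not by library totals, where Rian was at -0.22. The difference of Rian between astrocytes and microglia, 0.48 ± 0.226 (adjusted p = 0.0540), passed with the mouse as a replicate block (adjusted p = 0.0149).

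Of the 7 listed genes of the Dlk1-Dio3 region, 5 passed the filter on low counts (Begain, Meg3, Rtl1, Rian and Mirg), and all 5 were higher in oligodendrocytes than in each other cell type and in OPCs than in astrocytes. Of all genes, 17.7% were higher in oligodendrocytes than in OPCs, 28.9% than in astrocytes and 36.6% than in microglia. In OPCs 26.1% were higher than in astrocytes. Because Meg3, Rian and Mirg were members already, only Begain and Rtl1 added to the count of 5. Rtl1 overlaps the span of Rian on the other strand, with 0 exonic bases of Rian shared, and its reads cannot be assigned to a strand. Begain, at the far end of the region from Dio3, had 11.2 CPM ± 4.49 (SD, n = 8) in oligodendrocytes, 8.81 ± 3.53 (n = 11) in OPCs, 2.57 ± 0.957 (n = 12) in astrocytes and 2.23 ± 1.00 (n = 12) in microglia. Dlk1 and Dio3, which name the region and are made from the paternal copy, were low, with at most 1.88 CPM for Dlk1 and at most 0.628 CPM for Dio3 in any library.

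Miat had 12.1 to 39.8 CPM in OPCs (median 27.6) and 11.7 to 30.2 CPM in oligodendrocytes (median 19.8). Microglia had 3.87 to 11.8 CPM (median 7.18) and astrocytes 2.55 to 9.12 CPM (median 6.34), so that the oligodendrocyte lineage lay above both, apart from the lowest oligodendrocyte library, which fell just under the highest microglial one. Miat was higher in oligodendrocytes than in astrocytes by 2.41 ± 0.235 (adjusted p = 8.18e-12) and in OPCs than in microglia by 1.77 ± 0.217 (adjusted p = 1.14e-09). The call of oligodendrocytes over OPCs (0.62 ± 0.234, adjusted p = 0.0300) was lost with the mouse as a replicate block (adjusted p = 0.0759) and its sign turned by library totals (-0.48).

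Snhg11, the small nucleolar RNA host, had 152 to 266 CPM in oligodendrocytes (median 204), 87.7 to 177 CPM in OPCs (median 105), 23.1 to 68.6 CPM in astrocytes (median 39.0) and 19.3 to 73.2 CPM in microglia (median 39.3). Its OPC and oligodendrocyte ranges overlapped, and both lay above those of astrocytes and microglia. It was higher in oligodendrocytes than in microglia by 3.41 ± 0.232 (adjusted p = 2.59e-17), than in astrocytes by 2.93 ± 0.229 (adjusted p = 1.35e-14) and than in OPCs by 1.90 ± 0.230 (adjusted p = 4.20e-09). The smaller difference of astrocytes against microglia, 0.48 ± 0.205 (adjusted p = 0.0333), no longer passed by library totals (0.15, adjusted p = 0.461) or with DESeq2 (adjusted p = 0.0551).

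Pantr1 and Rmst, both tied to neural progenitor biology, were astrocyte RNAs in these libraries. Pantr1 had 36.3 to 75.0 CPM in astrocytes (median 61.4), 8.54 to 22.7 CPM in OPCs (median 15.8), 4.04 to 18.4 CPM in oligodendrocytes (median 9.22) and 0.219 to 1.30 CPM (3 to 14 counts) in microglia. Neither the astrocyte nor the microglial range overlapped another. The difference was 6.51 ± 0.254 for astrocytes against microglia (adjusted p = 4.21e-26), -2.22 ± 0.204 for OPCs against astrocytes (adjusted p = 1.66e-12) and 4.46 ± 0.252 for oligodendrocytes against microglia (adjusted p = 3.69e-20). Pou3f3, a neural transcription factor gene that overlaps Pantr1, went the same way, with 6.27 ± 0.194 for astrocytes against microglia (adjusted p = 9.13e-30) and -0.48 ± 0.152 for OPCs against astrocytes (adjusted p = 0.00820), a smaller step than that of Pantr1. Reads in the overlap of the pair cannot be assigned to a strand.

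Rmst had 5.86 to 16.9 CPM (61 to 172 counts) in astrocytes (median 10.6) and stayed at or under 4.49 CPM everywhere else. OPC libraries ran from 0.0993 to 4.49 CPM (1 to 58 counts) and oligodendrocytes from 0 to 1.62 CPM. In microglia 7 of 12 libraries had 0 counts, which at 3 counts allows up to 0.462 CPM in the shallowest of them. The difference was 6.17 ± 0.740 for astrocytes against microglia (adjusted p = 5.98e-10), -3.28 ± 0.637 for OPCs against astrocytes (adjusted p = 3.64e-05) and -3.34 ± 0.737 for oligodendrocytes against astrocytes (adjusted p = 0.000179). This floor covers counting error only, since reads were amplified without molecular identifiers.

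Kcnq1ot1 varied least, with a ratio of 1.89 between its highest and lowest mean CPM. It had 80.3 to 131 CPM in OPCs (median 94.0), 48.9 to 83.7 CPM in microglia (median 70.9), 37.9 to 90.0 CPM in oligodendrocytes (median 63.0) and 35.5 to 73.4 CPM in astrocytes (median 53.8). All neighbouring ranges overlapped. OPCs were higher than astrocytes by 0.51 ± 0.119 (adjusted p = 0.000460) and than microglia by 0.45 ± 0.119 (adjusted p = 0.000798) under each of 5 scalings, whereas the oligodendrocyte differences, 0.40 against OPCs and 0.85 against microglia, turned to -0.69 and -0.14 by library totals. Over all 9 settings of the fit, the adjusted p of OPCs against astrocytes reached 0.0661. Kcnq1, in which it lies on the other strand, had at most 0.714 CPM in any library. Of the 10 listed genes of the region 6 passed the filter, and in OPCs against astrocytes 2 of the 6 were higher and 2 lower. Cdkn1c, a growth inhibitor silenced on the copy that makes Kcnq1ot1, had 5.96 CPM ± 2.37 (SD, n = 11) in OPCs and 0.678 ± 0.488 (n = 12) in astrocytes, a difference of 2.74 ± 0.526 (adjusted p = 3.15e-05) on the same side as Kcnq1ot1.

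**Figure D3:**
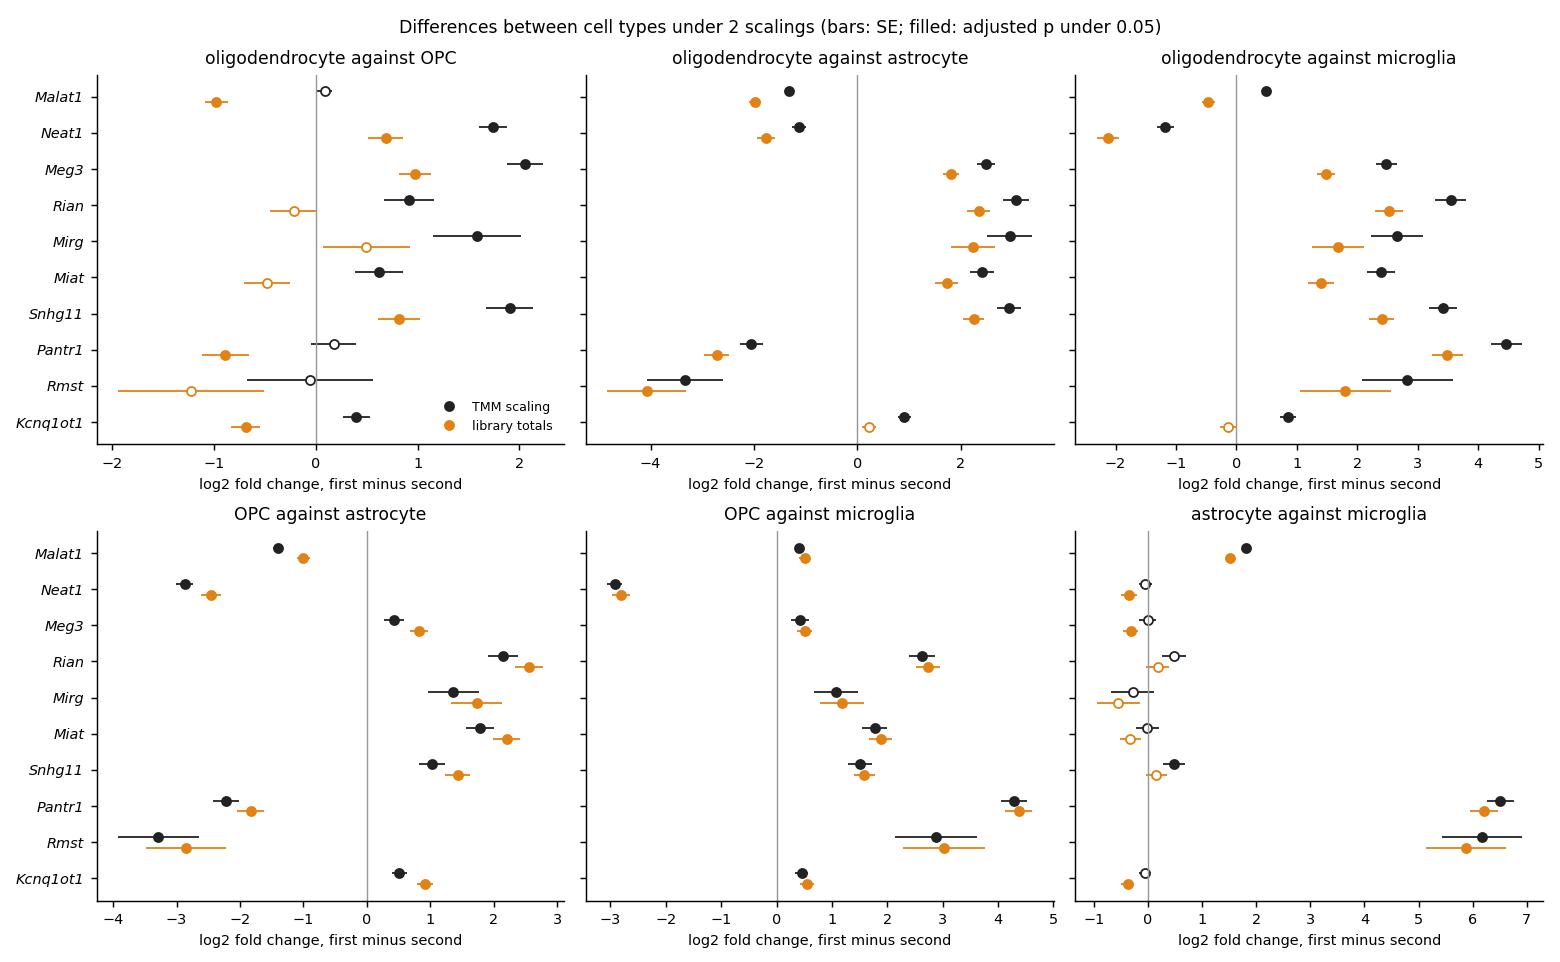
Log2 differences of the 10 long noncoding RNAs between each pair of cell types (horizontal axis, first minus second, with standard error), on the TMM scale and with library totals, filled where adjusted p was under 0.05. In oligodendrocytes against OPCs the points of both scalings lie about 1 unit apart, and Malat1, Rian, Miat, Pantr1 and Kcnq1ot1 change sign.

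Counts of called members were set beside the share of all 19209 genes called, because differences between cell types were widespread. In oligodendrocytes against OPCs 7 of 10 members were called, all higher (40.4% of all genes were called, 17.7% higher and 22.7% lower). In oligodendrocytes against astrocytes all 10 were called, 6 higher and 4 lower (51.5% of all genes, 28.9% higher and 22.7% lower). In oligodendrocytes against microglia all 10 were called, 9 higher and 1 lower (69.7%, 36.6% and 33.1%). In OPCs against astrocytes all 10 were called, 6 higher and 4 lower (44.2%, 26.1% and 18.1%), and in OPCs against microglia all 10, 9 higher and 1 lower (71.7%, 40.3% and 31.4%). Astrocytes against microglia gave 4 calls, all higher (Malat1, Pantr1, Rmst and Snhg11), where 72% of all genes were called, 38.2% higher and 33.8% lower.

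The median difference of the members was 0.77 in oligodendrocytes against OPCs, 1.66 against astrocytes and 2.57 against microglia, while that of all genes was -0.14, 0.08 and 0.04. Library totals moved the median of all genes by -1.06, -0.66 and -0.97 in these comparisons. Calls in the same direction under all 5 scalings remained for Neat1, Meg3 and Snhg11 in oligodendrocytes against OPCs, for 9 members (5 higher, 4 lower) in both oligodendrocytes and OPCs against astrocytes, for 8 (7 higher, 1 lower) in oligodendrocytes against microglia, for 9 (8 higher, 1 lower) in OPCs against microglia, and for Malat1, Pantr1 and Rmst in astrocytes against microglia.

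Transcripts of neurons, cells that none of the dishes was meant to hold, were in every group and moved with several members. The summed level of 15 neuronal genes was 1300 to 2854 CPM in oligodendrocytes, 1523 to 2346 in OPCs, 617 to 940 in astrocytes and 212 to 419 in microglia, and none of the 15 was at 0 in all libraries of a group. All 15 were higher in oligodendrocytes than in astrocytes and than in microglia, 13 were higher in OPCs than in astrocytes, 11 in oligodendrocytes than in OPCs and 14 in astrocytes than in microglia, and 0 were lower in any comparison. The shares of all genes that were higher in these comparisons, in the same order, were 28.9%, 36.6%, 26.1%, 17.7% and 38.2%. By mean level on the TMM scale Meg3, Rian and Snhg11 had the order oligodendrocytes, OPCs, astrocytes, microglia, and Mirg, Miat and Kcnq1ot1 had it apart from the last pair, while Malat1, Neat1, Pantr1 and Rmst did not. The part of neuronal RNA in the members' levels was not tested.

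Within cell types, after the mean of each was taken off on the log2 TMM scale, the summed neuronal level correlated across the 43 libraries with Snhg11 (Pearson r = 0.646), Meg3 (0.620), Rian (0.542), Miat (0.439) and Mirg (0.382), negatively with Malat1 (-0.479) and Neat1 (-0.414), and with Pantr1 and Rmst at -0.037 and 0.0080. These values are descriptions over libraries that share mice, lanes and normalization factors. In the 8 oligodendrocyte libraries alone r was 0.963 for Rian, 0.913 for Snhg11, 0.881 for Meg3, -0.861 for Malat1 and -0.897 for Neat1. The other cell types gave weaker values. In OPCs, astrocytes and microglia, in this order, r was 0.214, 0.388 and 0.397 for Rian and 0.735, 0.578 and 0.608 for Snhg11. For Meg3 it was 0.707, 0.636 and 0.594, for Malat1 -0.477, -0.306 and -0.0129, and for Neat1 -0.314, -0.356 and 0.246. Pantr1 had -0.723 in microglia, at 3 to 14 counts, and 0.118 to 0.280 in the other cell types.

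**Figure D4:**
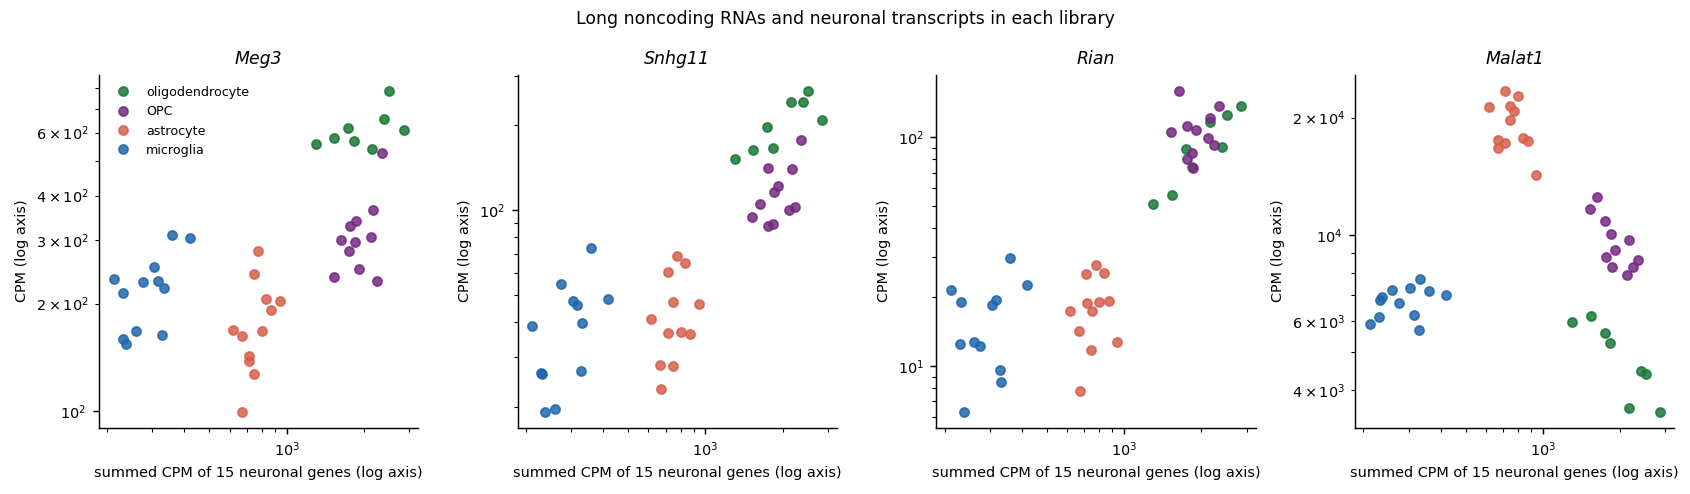
CPM of Meg3, Snhg11, Rian and Malat1 in each of 43 libraries against the summed CPM of 15 neuronal genes (both log axes), coloured by cell type. Snhg11 and Rian tend to lie higher in oligodendrocyte libraries with more neuronal transcripts, and Malat1 tends to lie lower there. Meg3 follows this less closely in CPM, with 611 CPM in the library at 2854 neuronal CPM and 619 CPM in that at 1740.

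The genes most like each member across the 43 libraries, with cell type means taken off and among 19208 genes, are given as descriptions. Meg3 was most like Snhg11 (r = 0.822), then Grin2b, an NMDA receptor subunit (0.779), and R3hdm1 (0.747). Rian was most like Grm5, a metabotropic glutamate receptor (0.783), Snhg11 (0.735) and Lrrc7 (0.722). Snhg11 was followed after Meg3 by Grin2b (0.774) and Grin1 (0.753), Miat by the adhesion molecule L1cam (0.592), Grin2b (0.586) and Arpp21 (0.586), Mirg by Car11 (0.663), Lzts1 (0.616) and Dpysl4 (0.611), and Kcnq1ot1 by Psd3 (0.671), Lrrc55 (0.642) and Dgkh (0.633). Malat1 was most like Gm48092 (0.687), Ccdc88a (0.668) and Clk1, a kinase of splicing factors (0.666), and Neat1 was most like Notch2 (0.676), Sdc4 (0.655) and Marchf3 (0.646). Among the members themselves the highest values were those of Meg3 with Snhg11 and of Rian with Snhg11, then Meg3 with Rian (0.671), whereas Malat1 and Neat1 had r = 0.342.

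The loss of lymphocytes was the comparison the study was built for, and no member was called between genotypes in any cell type. edgeR tested 9 members in oligodendrocytes, where 0% of 13802 genes were called, 10 in OPCs (0.00592% of 16882 genes), 10 in astrocytes (0.00679% of 14725 genes) and 8 in microglia (0.00667% of 15003 genes). Rmst in oligodendrocytes and both Pantr1 and Rmst in microglia had too few counts to be tested. None of these 37 tests had an unadjusted p under 0.05, and DESeq2, which called 206 genes of all those in oligodendrocytes, called 0 members in any cell type.

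Malat1, the most abundant member, had narrow intervals. Control oligodendrocytes had 4927 CPM ± 1203 (SD, n = 4) and Rag2-/- oligodendrocytes 4831 ± 1027 (n = 4), a log2 difference of 0.03 with a 95% interval of -0.27 to 0.32. In OPCs the interval ran from -0.19 to 0.25, in astrocytes from -0.24 to 0.15 and in microglia from -0.24 to 0.14. Neat1 had 407 CPM ± 44.7 in control and 375 ± 57.5 in Rag2-/- astrocytes (n = 6 each), with an interval of -0.23 to 0.17, and 522 ± 92.2 against 484 ± 89.0 in microglia (n = 6 each), with an interval of -0.29 to 0.19. The low members allowed much wider differences, as for Mirg in microglia, whose interval ran from -1.35 to 1.65, or Rmst in OPCs, from -0.68 to 3.04.

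Mirg in oligodendrocytes was the sole case among 40 members and cell types in which the genotypes did not overlap by CPM. They did overlap on the TMM scale, where Rag2-/- replicate 1 had 9.02 and control replicate 3 had 8.76. By totals without mitochondrial genes the same 2 libraries had 11.9 and 11.6 CPM and overlapped too. The share of all genes without overlap was not counted, so this case is given as a description. Control libraries of pairs 1, 3, 5 and 6 had 7.19, 6.31, 10.5 and 5.85 CPM (91, 67, 95 and 70 counts), and Rag2-/- libraries had 5.56, 1.05, 4.65 and 3.67 CPM (83, 12, 50 and 50 counts). By CPM, Mirg was thus lower in the Rag2-/- mouse of 4 of 4 pairs, as were Rian and Meg3. For Meg3, pair 3 turned on the TMM scale (807 in the control and 817 in the Rag2-/- library). It also turned by totals without mitochondrial genes (1072 and 1082 CPM). The ratio of means was 0.499 for Mirg, and its log2 difference was -1.11 ± 0.674 (unadjusted p = 0.127, adjusted p = 0.998). The log2 difference of Mirg became -2.04 without Rag2-/- replicate 1 and -0.72 without Rag2-/- replicate 3, whose library had the 12 counts. In the same libraries Rian gave -0.57 ± 0.385 and Meg3 -0.26 ± 0.183, both with adjusted p = 0.998, while the neuronal genes summed to 1533 to 2854 CPM in controls and 1300 to 2399 CPM in Rag2-/- libraries. In the fit, the differences of the 15 neuronal genes all lay below 0, from -1.34 to -0.04 (median -0.38), with 0 called by edgeR and 2 at an unadjusted p under 0.05, and their part in the differences of Mirg, Rian and Meg3 was not tested. Across the other cell types Mirg had differences of -0.07 in OPCs, -0.46 in astrocytes and 0.15 in microglia.

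In OPCs the widest difference was that of Rmst, 1.18 ± 0.875 (adjusted p = 1.00). Control libraries 1 to 6 had 2.52, 0.133, 0.287, 0.0993, 1.57 and 0.532 CPM, and Rag2-/- libraries 1, 2, 3, 4 and 6 had 4.49, 0.407, 0.214, 3.95 and 1.08 CPM, so the groups overlapped and each held libraries at a few counts. Whether the genotype difference depended on cell type was tested with 3 interaction terms in all 43 libraries. No member passed (0.302% of all genes did), and only Rmst had an unadjusted p under 0.05 (adjusted p = 0.407). When genes of low counts were left in, Rmst was the 1 member called.

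**Figure D5:**
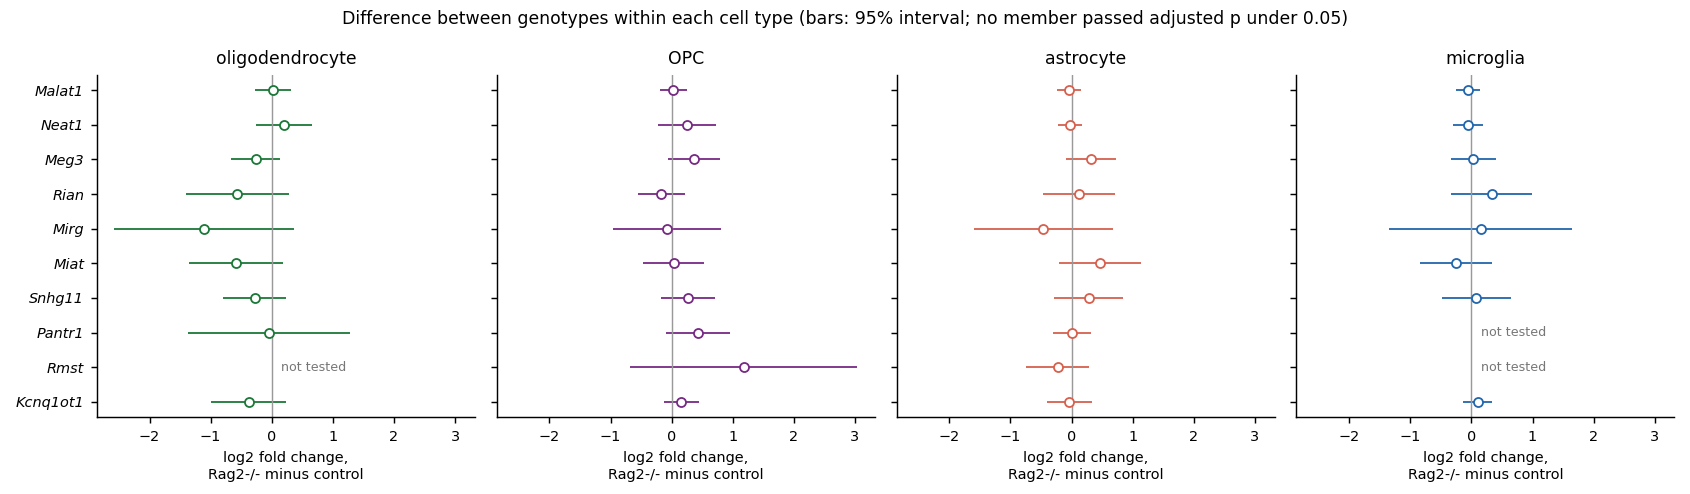
Log2 difference between Rag2-/- and control (horizontal axis) for each long noncoding RNA in 4 cell types, with 95% intervals from the fit. Every interval crosses 0, that of Malat1 in microglia running from -0.24 to 0.14 and that of Mirg in oligodendrocytes from -2.58 to 0.37, and Rmst in oligodendrocytes and Pantr1 and Rmst in microglia were not tested.

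Sex was a term of the same fits, and no member was called in oligodendrocytes (0.0362% of all genes were), OPCs (0.0296%), astrocytes (0.0407%) or microglia (0.0467%). At unadjusted p under 0.05 there were 4 of 9 members in oligodendrocytes, 0 of 10 in OPCs, Meg3 alone in astrocytes (-0.44 ± 0.200, adjusted p = 0.726) and 0 of 8 in microglia. Among all genes the same threshold was passed by 1136 of 13802 in oligodendrocytes, 726 of 16882 in OPCs, 991 of 14725 in astrocytes and 588 of 15003 in microglia. Snhg11 in oligodendrocytes had 242 to 266 CPM in 3 female libraries and 152 to 209 CPM in 5 male libraries, which did not overlap, with a difference of 0.83 ± 0.239 (unadjusted p = 0.00493, adjusted p = 0.505). How many of all genes did not overlap between the sexes was not counted. The female libraries were both of pair 5 and the Rag2-/- library of pair 6, while pairs 1 and 3 were all male. Only pair 6 held both sexes, and there sex went with genotype. A difference between sexes in oligodendrocytes thus cannot be told apart from one between these pairs. Miat was at 0.94 ± 0.357 and Meg3 at 0.49 ± 0.187 (adjusted p = 0.529 for each), and Neat1 at -0.53 ± 0.223 (adjusted p = 0.565). The neuronal genes summed to 2157 to 2512 CPM in the same female and 1300 to 2854 CPM in the male libraries. In the fit all 15 had differences above 0, the side of Snhg11, Miat and Meg3, from 0.08 to 2.31 (median 0.72), with 0 called by edgeR and 6 at an unadjusted p under 0.05, and their part in these differences was not tested.

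Other named long noncoding RNAs were listed beside the members. Of 20 listed, 18 had a row and 16 passed the joint filter. In oligodendrocytes against astrocytes 10 of 16 were higher and 2 lower (28.9% and 22.7% of all genes), with a median of 1.00, and in oligodendrocytes against OPCs 8 were higher and 1 lower (17.7% and 22.7% of all genes), with a median of 0.62, where the members had 1.66 and 0.77. Snhg14, the host of the small nucleolar RNAs of the Prader-Willi region, went the way of Rian and Snhg11, at 2.50 ± 0.230 for oligodendrocytes against astrocytes (adjusted p = 1.73e-12), as did Peg13, an imprinted RNA, at 1.62 ± 0.167 (adjusted p = 3.77e-11). Sox2ot, which runs across Sox2, was near absent from microglia (0.754 CPM ± 0.546, n = 12, against 55.6 ± 12.6 in astrocytes, n = 12), like Pantr1 and Rmst, but was highest in oligodendrocytes (107 ± 28.4, n = 8). Between genotypes 0 of these genes were called in any cell type.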

How the data were processed

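RNA was amplified with Ovation RNA-Seq V2 and made into libraries with NEBNext Ultra. Per the labels and the study's methods, the authors aligned reads to GRCm39 with STAR 2.7.8a and counted them per gene with HTSeq, whose overlap mode and strand setting are not given in the sources used here, and the deposited files hold raw counts for 55416 genes. Reads on no gene, on several genes or at several places (33.5% to 52.0% per library) stayed out of totals. CPM was computed from the counts on genes, and exon lengths and biotypes came from a later annotation of the same build.

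Each cell type was fitted with sex and genotype, and cell types were compared in 1 fit of 43 libraries with cell type, sex and genotype (edgeR 4.0.16 in R 4.3.3, quasi-likelihood test, TMM, filterByExpr with minimum count 10 and minimum total 15, two-sided, Benjamini-Hochberg). The study used DESeq2, here an alternative (1.42.0). Alternatives also left out the filter, each library, mitochondrial genes or Rag2-/- libraries, changed the scaling, or blocked on littermate pair or mouse. Replicate numbers mark littermate pairs, whose deviations correlated at a mean r of 0.0865 (microglia) to 0.135 (astrocytes), against -0.0359 to -0.0176 for other pairings. No pair of libraries of a group matched within sampling noise (smallest chi-square per gene 7.45 in 97 pairs). The script was tested on simulated counts.

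The text names the members, genes of 7 lists (paraspeckle and nuclear speckle proteins, the Dlk1-Dio3 and Kcnq1 regions, neuronal genes, other long noncoding RNAs and nearest coding genes) and the 3 genes most like each member. Members and lists were chosen with earlier results of these data known. The scalings by library totals, with or without mitochondrial genes, and the fit of control libraries alone were chosen after seeing the data.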

Additional observations from a re-analysis of the deposited data

Results flagged for a closer look

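Of 80 groups of 4 to 6 libraries (10 members, 4 cell types, 2 genotypes), 6 held a library whose CPM stood apart from the rest of its group by Dixon's test at its 95% limit, where chance gives about 1 in 20. Kcnq1ot1 was highest in replicate 5 of the control OPCs, at 131 CPM against 87.2 to 99.4 in the others, and in replicate 5 of the control oligodendrocytes, at 90.0 against 62.8 to 66.7, which are libraries of the same mouse. Mirg was highest in replicate 6 of the Rag2-/- microglia, at 4.66 CPM against 0.646 to 1.46, and in replicate 1 of the control microglia, at 4.31 against 0 to 1.49. Pantr1 was lowest in replicate 1 of the control astrocytes, at 36.3 CPM against 62.0 to 72.3. Rmst was highest in replicate 6 of the Rag2-/- oligodendrocytes, at 1.62 CPM (22 counts) against 0 to 0.263. The cause of these values was not tested.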

How the results depend on the processing

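Counts of called members in each comparison of cell types, genotypes or sexes stayed within 1.5 times under every alternative, and 0 members were called by genotype or sex under any. The exception was the interaction of genotype and cell type, with 1 member (Rmst) and 1011 genes without the filter, and 5 genes with the mouse as a replicate block, against 0 members and 58 genes. With the littermate pair as a replicate block, no call between genotypes changed. Counts of all genes moved more. Without the filter the genotype test called 14, 90, 30 and 9 genes and the sex test 99, 72, 118 and 25 (oligodendrocytes, OPCs, astrocytes, microglia), and DESeq2 called 206, 5, 1 and 3 by genotype and 434, 13, 18 and 11 by sex. Leaving out 1 library at a time gave 1 to 2 genes by genotype in microglia and 3 to 5 by sex in oligodendrocytes. Library totals called 13449 genes in oligodendrocytes against OPCs, where TMM gave 7753. The cause of these moves was not tested.

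Directions between cell types turned as follows. By library totals, oligodendrocytes against OPCs became -0.98 for Malat1, -0.22 for Rian, -0.48 for Miat, -0.89 for Pantr1 and -0.69 for Kcnq1ot1, and against microglia -0.47 for Malat1 and -0.14 for Kcnq1ot1. By totals without mitochondrial genes, oligodendrocytes against OPCs became -0.36 for Malat1, -0.27 for Pantr1 and -0.058 for Kcnq1ot1, and astrocytes against microglia 0.11 for Neat1, 0.17 for Meg3, 0.16 for Miat and 0.11 for Kcnq1ot1. Rmst in oligodendrocytes against OPCs became 0.19 with the mouse as a replicate block and 1.05 in control libraries alone, and Miat in astrocytes against microglia became 0.0028 with that block. Beside the calls of Miat and Rian given above, the mouse block changed no other call. In control libraries alone, 8 calls of members between cell types no longer passed. In microglia the genotype difference of Miat ran from -0.43 to 0.027 over libraries left out in turn, the last value without control replicate 5. By highest mean CPM, oligodendrocytes held 5 members without mitochondrial genes and 6 on the TMM scale, OPCs 1 and 0, and microglia 0 and 1. Depth limited Mirg, Rmst and, in microglia, Pantr1, whose libraries held few counts.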
